A study of Mus musculus with 2 samples.

Results

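Plasmacytoid dendritic cells of the CCl4-injured mouse liver were described in 104 cells, out of 24093 cells that passed the cell filter and 24655 barcodes in all. The cells were chosen by measured values, their UMIs (unique molecular identifiers, which tell the original RNA molecules apart). A member had 200 or more genes, no more than 20% of its UMIs from mitochondrial genes, at least 3 UMIs of Siglech, and a UMI of at least 2 of the 6 genes Ccr9, Cox6a2, Klk1, Ly6d, Runx2 and Spib. It had no UMI of Cd3d, Cd3e or Cd3g, at most 1 UMI of Cd79a and Ms4a1 together, and at most 10 UMIs of the 3 C1q genes together. The rule found 25 cells in the wild-type and 79 cells in the knockout library.

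Non-parenchymal liver cells, the liver cells other than hepatocytes, came from Mfap2+/+ and Mfap2-/- mice, and both genotypes had received intraperitoneal carbon tetrachloride (CCl4), a hepatotoxin that scars the liver, over 8 weeks. Mfap2 encodes microfibril-associated glycoprotein-1, a protein of extracellular microfibrils. Each genotype was 1 droplet library, so genotype, animal and library preparation cannot be told apart, and no test between genotypes was possible. The number, strain, sex and age of the mice are not given in the sources used here.

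Plasmacytoid dendritic cells arise in the bone marrow under the E protein Tcf4, which binds E-box sequences in DNA, and enter tissues from the blood. They take up viral or self nucleic acids, sense them with endosomal Toll-like receptors, above all Tlr7 and Tlr9, and answer through Irf7 with type I interferon. Mouse plasmacytoid dendritic cells carry the lectin Siglec-H (Siglech), the tetherin Bst2 and the chemokine receptor Ccr9, and in the liver they are known for keeping responses to antigens from the gut and blood in check.

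The promoters of the rule's genes are shown because E-boxes lie in several of them. The letters searched were CAGGTG and, on the other strand, CACCTG, in windows from 250 bases before to 50 bases after each start site (RefSeq, build GRCm38.p6). Of the 7 rule genes, 5 had a window and 3 of those windows held the E-box, shown in capitals, 5′ to 3′ on the gene's strand: Siglech at chr7:55767934-55768233 (+), Ccr9 at chr9:123766961-123767260 (+) and Klk1 at chr7:44225110-44225409 (+).
Siglech: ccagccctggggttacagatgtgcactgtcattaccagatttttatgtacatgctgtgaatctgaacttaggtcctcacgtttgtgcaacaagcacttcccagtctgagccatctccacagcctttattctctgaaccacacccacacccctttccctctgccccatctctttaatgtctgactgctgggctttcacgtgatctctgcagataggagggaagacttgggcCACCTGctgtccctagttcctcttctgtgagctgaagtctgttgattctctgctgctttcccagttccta
Ccr9: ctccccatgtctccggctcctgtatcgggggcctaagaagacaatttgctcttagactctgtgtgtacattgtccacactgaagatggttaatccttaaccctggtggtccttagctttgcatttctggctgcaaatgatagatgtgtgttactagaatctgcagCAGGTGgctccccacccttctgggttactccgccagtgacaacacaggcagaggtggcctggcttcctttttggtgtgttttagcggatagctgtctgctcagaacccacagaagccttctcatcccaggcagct
Klk1: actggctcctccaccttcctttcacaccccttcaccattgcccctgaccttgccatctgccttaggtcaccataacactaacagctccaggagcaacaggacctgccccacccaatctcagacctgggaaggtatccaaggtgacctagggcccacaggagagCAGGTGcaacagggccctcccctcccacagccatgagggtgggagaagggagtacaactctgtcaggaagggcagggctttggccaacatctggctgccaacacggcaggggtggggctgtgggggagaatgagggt
The same letters were in 6640 of 32851 windows of all genes (20.2%). They were in 11 of 24 windows (45.8%) of the 20 genes highest in the members over all other cells, most of which are named below and of which 15 had a window. The heat-shock element, another motif described below, was also more frequent there, in 7 of the 24 windows (29.2%) against 15.1% of all windows. A match describes these letters only.

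The libraries held 82499307 UMIs in 11783 barcodes (wild type) and 118226367 UMIs in 12872 barcodes (knockout), and the median cell kept had 4932.5 and 6587 UMIs. Members were deeper than the median cell, with 4341 to 16922 UMIs (median 8506) in the wild type and 2884 to 17338 (median 10911) in the knockout, 1.28 times as many. The libraries shared 40 barcode sequences, and the barcode of 1 member also occurred in the other library. Mfap2, the targeted gene, had 257 UMIs in the kept cells of the wild-type library and 4 in those of the knockout. In the members it had 0 UMIs in both libraries, which allows up to 13.7 CPM in the wild type and 3.37 CPM in the knockout (3 counts per library; CPM are a gene's summed UMIs per 1000000 UMIs of the members of a library). Values in parentheses after a share, level or ratio are 95% intervals that cover counting error only.

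Plasmacytoid dendritic cells made up a larger share of the knockout than of the wild-type library. They were 25 of 11370 kept cells in the wild type, 0.220% (0.142 to 0.324, Clopper-Pearson), and 79 of 12723 in the knockout, 0.621% (0.492 to 0.773). The share was 2.82 times as large in the knockout (1.78 to 4.62), a log2 ratio of 1.50 (0.83 to 2.21). Over the same denominators, B cells were 8.00% and 11.2% (log2 ratio 0.49, 0.37 to 0.61). Type 1 conventional dendritic cells were 0.941% and 1.19% (0.33, -0.03 to 0.71), and type 2 were 0.352% and 0.589% (0.74, 0.17 to 1.34). These 3 populations were gated on at least 3 UMIs of Cd79a and Ms4a1, 2 of Xcr1 and Clec9a, or 2 of Cd209a, without Siglech. Each library was a single draw of cells, so the spread of these shares between mice is not known.

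The rule uses fixed UMI numbers, and the knockout library was deeper. After the knockout cells were thinned to the median depth of the wild-type library, the rule found 85 of them, and the log2 ratio was 1.60 (0.95 to 2.31). Thinning also lowers the counts of the T, B and C1q genes, so cells above those limits can enter. It therefore does not isolate the effect of depth on the Siglech minimum. At a minimum of 5 Siglech UMIs the cells numbered 16 and 75, and the log2 ratio was 2.07 (1.27 to 2.95). The wild-type members lay nearer to the minimum, with 7 of 25 at exactly 3 Siglech UMIs against 3 of 79 in the knockout. Cells with 2 Siglech UMIs that met the other criteria numbered 3 in the wild type, with medians of 33 Tcf4 and 9 Ccr9 UMIs, and 9 in the knockout, with medians of 9 and 0. The members just inside the minimum had medians of 47 and 30 Tcf4 UMIs and 2 and 1 Ccr9 UMIs.

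**Figure D1:**
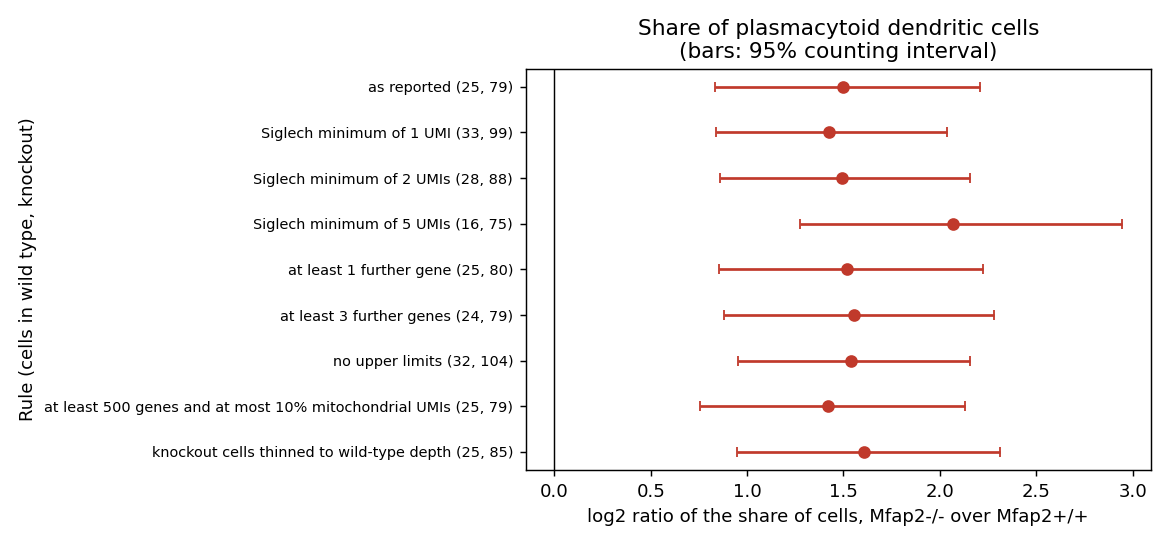
Log2 ratio of the share of plasmacytoid dendritic cells, Mfap2-/- over Mfap2+/+ (x axis), under the rule as reported and 8 changes to it (y axis, with the number of cells in each library); points are the ratios and bars their 95% counting intervals. All 9 points lie between 1.42 and 2.07.

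The rule's own genes are given as a description. Siglech had 3 to 18 UMIs per member (median 7) in the wild type and 3 to 22 (median 12) in the knockout. Ccr9, a receptor for the gut chemokine Ccl25, had 0 to 18 (median 4) and 0 to 41 (median 11), with 3 and 4 members at 0. Cox6a2, a cytochrome c oxidase subunit otherwise found in muscle, had a median of 3 and 6 UMIs, and Runx2, a transcription factor used by these cells to leave the marrow, had 13 in both. Klk1, a kallikrein protease, was missing from 18 of 25 and 35 of 79 members. The 2 libraries overlapped for every one of these genes.

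Of the genes outside the rule, Tcf4, Bst2 and Irf8 fitted the label, while Tlr9, described below, was nearly absent. Tcf4, the lineage's master regulator, had 11 to 68 UMIs per member (median 44) in the wild type and 12 to 115 (median 42) in the knockout, and no member lacked it. Bst2 had a UMI in all 104 members, with medians of 10 and 17, against 20.5% and 25.2% of B cells. Irf8, which sets the dendritic fate, also had a UMI in all 104, against 53.3% and 64.4% of B cells. B cells were shallower, with medians of 3688 and 5034 UMIs. With each cell thinned to 2500 UMIs, which left out 83 and 19 B cells and no member, Bst2 was in 84% and 98.7% of members and in 13.4% and 12% of B cells.

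**Figure D2:**
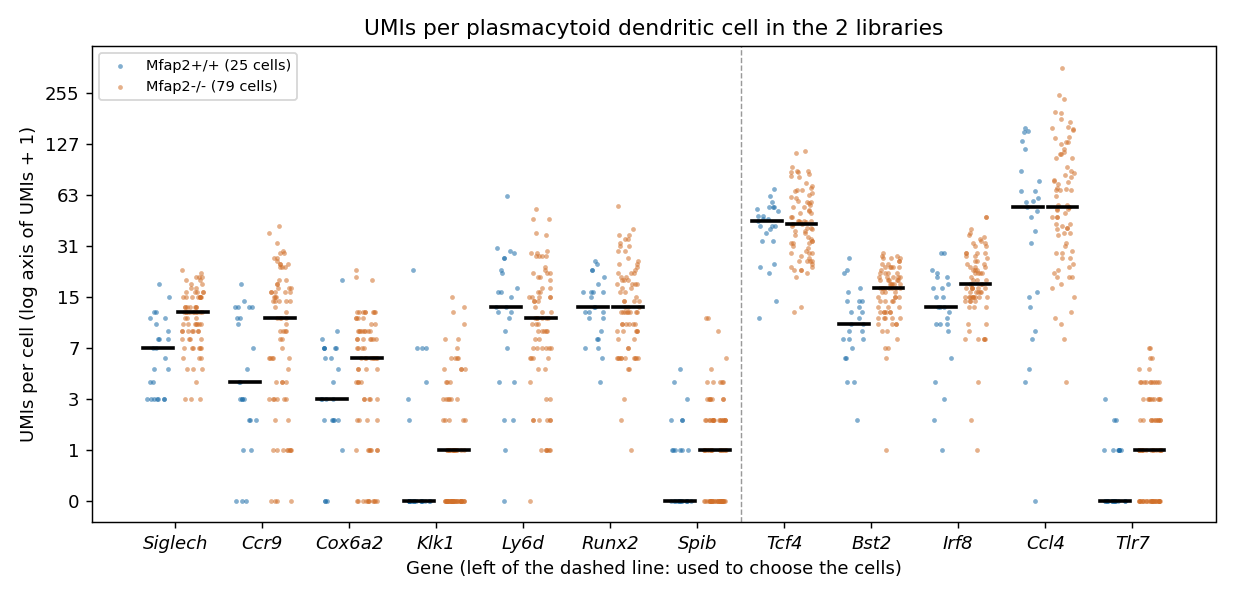
UMIs per cell (y axis, log scale of UMIs + 1) of 12 genes (x axis) in the 25 Mfap2+/+ and 79 Mfap2-/- plasmacytoid dendritic cells; each point is a cell and black lines are medians. Genes left of the dashed line chose the cells. Tcf4 has medians of 44 and 42 UMIs, while Klk1 and Spib are at 0 in many members.

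Most lists of markers of other cell types were lower in the members than in all other cells, but RNA of other types was present. Of the 11 T cell genes, Trac and the 3 Cd3 genes of the rule had no UMI in either library. Xcr1 and Ffar2 of the 17 genes of conventional and transitional dendritic cells, and Eomes of the 9 genes of natural killer and innate lymphoid cells, had none either. Summed, those 17 genes were at 1135 and 964 CPM in the members, against 3017 and 2661 CPM in all other cells. The 9 natural killer and innate lymphoid genes were closer in level, at 385 and 195 CPM against 449 and 273 CPM. The 8 Kupffer cell and macrophage genes outside the rule, which limits the 3 C1q genes, summed to 330 and 191 CPM in the members, against 2331 and 1207 CPM in all other cells. The 7 neutrophil genes summed to 833 and 768 CPM in the members, against 8938 and 4970 CPM. The 13 B and plasma cell genes summed to 380 and 563 CPM, of which the light chain gene Iglc3 gave 192 and 284. Ighm, the heavy chain of IgM, had a UMI in 24 of 25 and 79 of 79 members. Erythroid and hepatocyte genes differed between the libraries in members and other cells alike. The 6 erythroid genes were at 2664 and 118 CPM in the members and at 2547 and 552 CPM in other cells, and a single wild-type member held 450 of these UMIs. The 11 hepatocyte genes were at 128 and 334 CPM in the members and at 942 and 1515 CPM in other cells. Their part in the results that follow was not tested.

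Transcription factors of the dendritic lineages were close in level between the libraries. The list of 26 genes also held Flt3 and Crip1, which are not transcription factors. Of the 26, 20 were measured, meaning a mean of at least 50 CPM in the members. Their median log2 ratio of knockout over wild type was -0.076 (1 count added to each sum). None was at least 2-fold higher and 1, Crip1, was lower. Over all 3245 measured genes the median was -0.088, and 103 genes (3.17%) were at least 2-fold higher and 127 (3.91%) at least 2-fold lower. With each member thinned to 1000 UMIs, which leaves fewer UMIs in the wild type than in the knockout, 213 were higher and 839 lower. Tcf4 was at 4733 and 4170 CPM (log2 ratio -0.18, -0.28 to -0.08). Its partner Tcf12 was at 1341 and 1610 CPM (0.26, 0.08 to 0.45). Mef2c, also a B cell factor, was at 3987 and 4082 CPM (0.03, -0.07 to 0.14), and Irf8 at 1547 and 1772 CPM (0.19, 0.03 to 0.37). The measured genes farthest from 0 were Crip1, Id3, Flt3, Spi1 (-0.71) and Stat3. Id3, an inhibitor of E proteins, was at 407 and 210 CPM (-0.96, -1.33 to -0.58), and the cytokine receptor Flt3 at 348 and 202 CPM (-0.79, -1.18 to -0.38), though with each member thinned to 1000 UMIs its ratio was 0.11. Crip1, which codes for a LIM domain protein, was at 467 and 229 CPM (-1.03, -1.38 to -0.67), and at -0.55 without members with 15 or more UMIs of another cell type, an alternative chosen after seeing the data. Stat3, which acts downstream of Flt3, had the opposite sign at 385 and 631 CPM (0.70, 0.38 to 1.06).

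Tcf4, Irf8 and Mef2c were each higher in the members than in B cells and in both conventional dendritic populations of the same library. Tcf4 was at 404 and 519 CPM in B cells, at 255 and 657 CPM in type 1 and at 299 and 339 CPM in type 2 conventional dendritic cells. Irf8 was closest in type 1 conventional dendritic cells, at 1192 and 843 CPM, which also depend on it. Bcl11a, at 407 and 460 CPM in members, was next highest in B cells, at 182 and 186 CPM. Runx2, Spib and Ly6d chose the members, so their levels there (1570 and 1397, 110 and 147, and 1822 and 1186 CPM) follow in part from the rule. Of these, Ly6d, a surface protein of early B cells, was at 587 and 590 CPM in B cells. With 1 library per genotype these levels are a description.

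**Figure D3:**
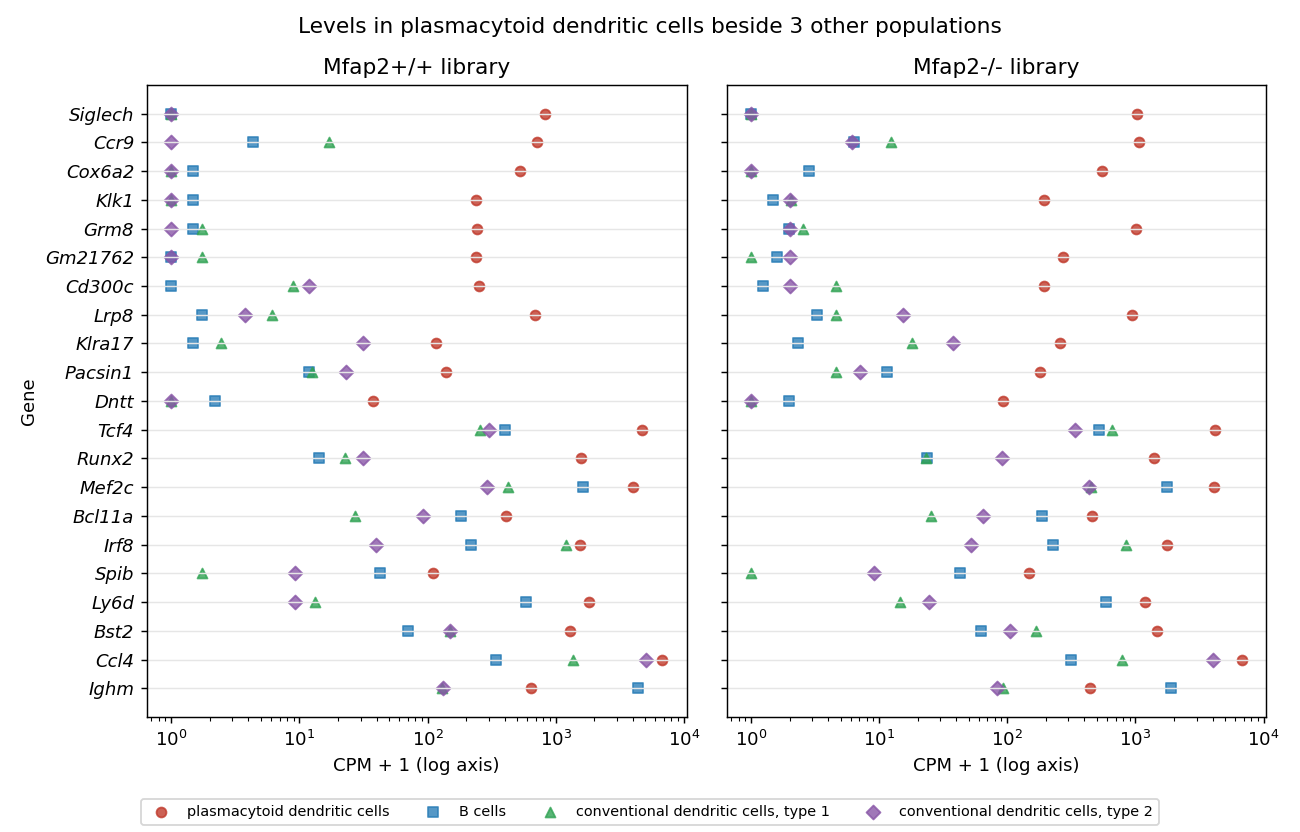
Level of 21 genes (y axis) as CPM + 1 (x axis, log scale) in plasmacytoid dendritic cells, B cells and both types of conventional dendritic cells of each library; each symbol is the summed count of 1 population. Siglech is at 0 in the other 3 by their gates. Tcf4 is at 4733 and 4170 CPM in the members and at most 657 CPM in the other populations, while Ighm is highest in B cells.

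Outside the rule, 60 genes were at least 8-fold higher in the members than in all other cells of both libraries, of 2055 genes with at least 20 UMIs in the members of each. The 20 with the largest lower value included Gm21762, Grm8, Cd300c, Lrp8os2, Lrp8, Sh3bgr, Pdzd4, Smim5, Paqr5, Gm34680, Pacsin1, Klra17, Srgap3, P2ry14, Upb1, Sla2, Tmem229b, Tspan2 and Mctp2. Gm21762, with no role given here, was 709-fold and 232-fold higher. The activating receptor gene Cd300c was 210-fold and 125-fold higher, and the reelin and lipoprotein receptor Lrp8 175-fold and 102-fold. Lrp8os2 lies antisense within Lrp8 and showed 395-fold and 104-fold. Pacsin1, an adaptor of membrane trafficking known from neurons and from human plasmacytoid dendritic cells, was 37.8-fold and 40.2-fold higher. Dntt, the terminal transferase of early lymphoid cells, was below that UMI minimum with 8 UMIs in the wild type, and was 105-fold and 73.3-fold above other cells.

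The glutamate receptor gene Grm8 differed most between the libraries among these 20. Its UMIs per member were 0 to 14 (median 0) in the wild type and 0 to 36 (median 10) in the knockout. It was found in 12 of 25 and 67 of 79 members, and in 16% and 72.2% of them at 2500 UMIs, against 0.220% and 0.559% of B cells before thinning. Its level was 243 CPM (182 to 317) and 1007 CPM (943 to 1076), a log2 ratio of 2.03 (1.65 to 2.48). Other cells had 1.48 and 4.30 CPM of it, with a log2 ratio of 1.53. Grm8 lies at chr6:27275119-28135178 on the minus strand (GRCm38). Without the richest member of each library the ratio was 2.37.

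Surface and effector genes of plasmacytoid dendritic cells outside the rule were mostly close in level. Of 39 genes, 28 were measured, with 3 at least 2-fold higher in the knockout, beside 3.17% of all measured genes. None was lower, and the median was 0.11. Plac8 was at 2147 and 2011 CPM (-0.10, -0.24 to 0.06), the inhibitory receptor Lair1 at 554 and 557 CPM (0.00, -0.28 to 0.31), and Ly6c2 at 746 and 592 CPM (-0.34, -0.59 to -0.07). The 3 higher genes were Tex2, Klra17 and Dntt. Tex2, which codes for a lipid transfer protein of the endoplasmic reticulum, had 0 to 65 UMIs per member (median 10) in the wild type and 1 to 142 (median 30) in the knockout. Its level was 1479 CPM (1322 to 1649) and 3361 CPM (3242 to 3484), a log2 ratio of 1.18 (1.02 to 1.35). In B cells the ratio was -0.32, in type 1 conventional dendritic cells 0.72 and in all other cells 0.03. Klra17, a lectin-like receptor of the Ly49 family, had 25 and 228 UMIs (1.11, 0.56 to 1.82) and was in 9 of 25 and 61 of 79 members. Dntt had 8 and 82 UMIs (1.18, 0.28 to 2.59). At a minimum of 5 Siglech UMIs the ratios were 0.91 for Tex2, 0.74 for Klra17 and 0.89 for Dntt, all below 2-fold. Reads of Klra17 could be split with its paralogs. Cd8b1, a CD8 chain that some plasmacytoid dendritic cells carry, had 1 UMI in the wild type and 64 UMIs in 24 knockout members (3.0, 1.44 to 9.30) and was below the level of measured genes.

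Part of the sensing machinery was measured in the members, Tlr7 was higher in the knockout, and Tlr9 was nearly absent. Of 32 genes of endosomal nucleic acid sensing, 19 were measured, with 2 at least 2-fold higher, beside 3.17% of all measured genes. None was lower, and the median was 0.022. Tlr7, the receptor for single-stranded RNA, had 0 to 3 UMIs per member (median 0) in the wild type and 0 to 7 (median 1) in the knockout. It was found in 10 of 25 and 52 of 79 members, against 8.46% and 11.6% of the shallower B cells, before thinning. Its level was 64.1 CPM (35.0 to 108) and 158 CPM (133 to 187), a log2 ratio of 1.22 (0.51 to 2.21), beside 0.32 in B cells and 0.37 in all other cells. At a minimum of 5 Siglech UMIs the ratio was 0.53, below 2-fold. Legumain (Lgmn), a lysosomal protease that cleaves the receptors, had 18 and 154 UMIs (1.0, 0.36 to 1.86), and a ratio of 0.66 at a minimum of 2 Siglech UMIs. In all other cells it was more abundant, at 612 and 515 CPM, with a log2 ratio of -0.25. Partners of the receptors differed less. The chaperone Unc93b1 was at 407 and 357 CPM (-0.20, -0.53 to 0.17), the transporter Slc15a4 at 119 and 142 CPM (0.21, -0.37 to 0.92), and the nuclease Pld4 at 252 and 318 CPM (0.32, -0.08 to 0.78). Tlr9, the receptor for unmethylated DNA, had 0 UMIs in the wild type, which allows up to 13.7 CPM, and 1 UMI in the knockout.

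Interferon transcripts were nearly absent. Of 19 type I and III interferon genes, Ifna2 had 3 UMIs in each library, Ifna16 1 UMI in the wild type and Ifnb1 5 UMIs in 4 knockout members. The other 16 were at 0 in both. The receptor chains were at 302 and 330 CPM for Ifnar1 (0.11, -0.26 to 0.54) and at 879 and 871 CPM for Ifnar2 (-0.02, -0.24 to 0.22). The regulator Irf7 was at 183 and 149 CPM (-0.32, -0.81 to 0.25).

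Interferon-stimulated genes had a median log2 ratio near 0 in the members and above 0 in the other populations. Of 50 listed genes, 48 were in the files and 18 were measured in the members. Of these, 3 were at least 2-fold higher, beside 3.17% of all genes measured there. None was lower, and the median was 0.080. The medians were 0.57 in B cells (14 measured), 1.15 in type 1 (29) and 0.35 in type 2 conventional dendritic cells (23), and 0.54 in all other cells (28). In type 1 conventional dendritic cells 18 of the 29 were at least 2-fold higher, beside 14.6% of all genes measured there. Over all measured genes the medians were -0.088 in the members, 0.15 in B cells, 0.13 in type 1 and 0.014 in type 2 conventional dendritic cells, and 0.15 in all other cells. The type 1 cells also held RNA of other types, with 10 endothelial genes at 1074 and 3053 CPM and 7 neutrophil genes at 2139 and 3782 CPM. Its part was not tested. These medians rest on different sets of measured genes, and the difference between populations was not tested. The 3 higher genes were Oasl1, Ifit2 and Ifi207, while Isg15 was at 64.1 and 41.6 CPM (-0.69, -1.55 to 0.38), Ifi27l2a at 526 and 459 CPM (-0.21, -0.50 to 0.11) and Ly6e at 865 and 850 CPM (-0.03, -0.26 to 0.21). Oasl1, which dampens Irf7 translation, had 22 UMIs in 11 wild-type members and 269 UMIs in 40 knockout members (1.53, 0.96 to 2.28). Ifit2 had 1 UMI and 90 UMIs, the latter in 28 members (3.48, 1.95 to 9.78).

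A single knockout member had the highest share of these genes. The listed genes took 0.208% to 3.21% of a knockout member's UMIs (median 0.520%), the second highest being 0.971%, and 0.297% to 1.12% (median 0.472%) in the wild type. The highest cell held 79 of the 269 Oasl1 UMIs, 50 of the 177 Ifih1 UMIs, 15 of the 90 Ifit2 UMIs and 2 of the 5 Ifnb1 UMIs. It held 350 of the 5168 UMIs of the list in knockout members (6.77%). It had 10917 UMIs in all, 49 of Tcf4, 3 of Siglech and 0 of Ccr9. Without the member of each library richest in the gene, the log2 ratio was 1.61 for Oasl1, 4.09 for Ifit2 and 0.83 for Ifih1. For Ifit2 this left out the only wild-type UMI, so that ratio rests on the added count. The knockout member richest in Ifit2 held 20 of the 90 UMIs. At a minimum of 5 Siglech UMIs the ratio was 0.78 for Oasl1 and 0.85 for Ifi207, both below 2-fold.

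Among the gene lists other than markers of other cell types, heat-shock genes had the highest median in the members, and their median was above 0 in all 5 populations compared. Of 30 genes, all in the files, 22 were measured in the members, with 9 at least 2-fold higher, beside 3.17% of all measured genes, none lower and a median of 0.73. The medians were 0.44 in B cells, 0.46 in type 1 and 0.57 in type 2 conventional dendritic cells and 0.64 in all other cells. The list took 0.573% to 2.03% of a wild-type member's UMIs (median 1.06%) and 0.173% to 5.56% of a knockout member's (median 2.07%). No wild-type member exceeded the knockout median, 7 knockout members were below the wild-type median, and 41 of 79 were above the highest wild-type member, so the libraries overlapped in part.

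Hspa1a and Hspa1b, the inducible Hsp70 chaperones, are near-identical neighbours at chr17:34969190-34972156 and chr17:34956436-34959238 (minus strand, GRCm38), and reads could be split between them. Hspa1a had 0 to 28 UMIs per member (median 2) in the wild type and 0 to 93 (median 23) in the knockout. Its level was 682 CPM (577 to 801) and 2454 CPM (2352 to 2559), a log2 ratio of 1.84 (1.61 to 2.10), beside 1.36 in B cells and 0.36 and 0.15 in type 1 and type 2 conventional dendritic cells. Hspa1b was at 1057 and 3513 CPM (1.73, 1.54 to 1.93). Hsph1, an Hsp110 nucleotide exchange factor, had 0 to 5 UMIs per member (median 1) and 1 to 32 (median 7), with 224 and 774 CPM (1.76, 1.37 to 2.24) and ratios of 1.28 to 1.78 in the other 3 populations. The Hsp40 co-chaperone Dnajb1 was at 430 and 1254 CPM (1.53, 1.24 to 1.86) and the mitochondrial chaperonin Hspd1 at 151 and 431 CPM (1.47, 1.0 to 2.07). Hsp90aa1 was at 1250 and 2785 CPM (1.15, 0.98 to 1.34), where B cells had a ratio of 0.23. The constitutive members were closer, with Hspa8 at 2289 and 3282 CPM (0.52, 0.38 to 0.66) and Hspa4 at 229 and 237 CPM (0.03, -0.40 to 0.52). With each member thinned to 1000 UMIs the list's median was 0.34 and Hspd1 was at 0.95.

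The promoter of Hsph1 is shown because these genes differed together. The letters searched were GAANNTTC and TTCNNGAA, paired units of the heat-shock element, each its own reverse complement and therefore the same on both strands. They were in 6 of 13 windows (46.2%) of the 9 higher genes, of which 8 had a window, and in 4946 of 32851 windows of all genes (15.1%). The window of Hsph1 (RefSeq, GRCm38.p6, chr5:149636287-149636586, minus strand) held 3 matches, in capitals, of which the last 2 overlap.
Hsph1: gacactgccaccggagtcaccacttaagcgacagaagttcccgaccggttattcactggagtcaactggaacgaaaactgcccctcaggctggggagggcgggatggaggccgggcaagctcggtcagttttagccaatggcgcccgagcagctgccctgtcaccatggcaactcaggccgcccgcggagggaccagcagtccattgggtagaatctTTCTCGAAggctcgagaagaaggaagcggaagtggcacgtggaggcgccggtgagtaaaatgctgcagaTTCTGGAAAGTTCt

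**Figure D4:**
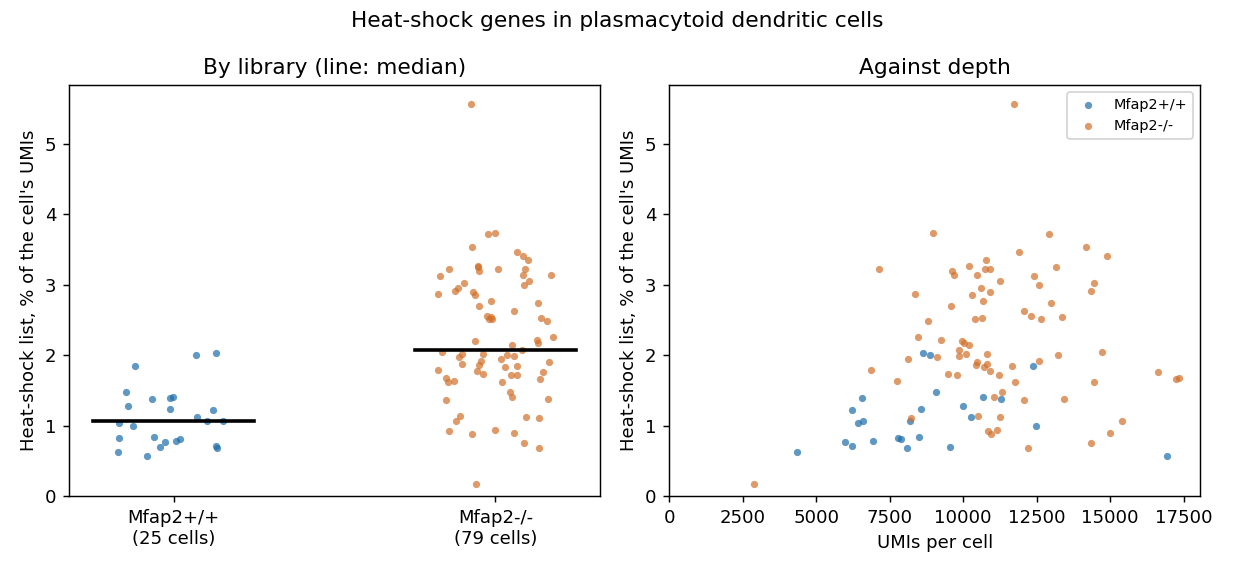
Share of each plasmacytoid dendritic cell's UMIs in the heat-shock list (y axes, %), by library (left, black lines are medians) and against UMIs per cell (right). Each point is a cell. The medians are 1.06% in 25 Mfap2+/+ and 2.07% in 79 Mfap2-/- cells, and 41 knockout cells lie above the highest wild-type cell.

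Antigen presentation genes were divided. Of 27 genes, 18 were measured, with none at least 2-fold apart, 9 above and 9 below 0, and a median of -0.024. The class II genes H2-Aa, H2-Ab1 and H2-Eb1 and the invariant chain Cd74 were higher in the knockout. H2-Aa had 0 to 23 UMIs per member (median 7) in the wild type and 1 to 58 (median 13) in the knockout, and was at 815 and 1450 CPM (0.82, 0.60 to 1.07). H2-Ab1 was at 472 and 904 CPM (0.93, 0.64 to 1.25), H2-Eb1 at 504 and 950 CPM (0.90, 0.63 to 1.22) and Cd74 at 2673 and 4031 CPM (0.59, 0.47 to 0.72). The class II loading genes were divided, with H2-DMa at 252 and 185 CPM (-0.46, -0.89 to 0.03) and H2-DMb1 at 101 and 139 CPM (0.41, -0.19 to 1.19). For H2-Aa the ratio was 0.02 in B cells, -0.64 and -0.19 in the conventional dendritic cells and 0.51 in all other cells. Per member, H2-Aa, H2-Ab1, H2-Eb1 and Cd74 together took 0.0470% to 1.69% of UMIs (median 0.350%) in the wild type and 0.0614% to 2.18% (median 0.568%) in the knockout, so the libraries overlapped. B and plasma cell genes were also higher in knockout members, at 380 and 563 CPM, and the part of their RNA in this was not tested. The class I genes H2-K1 (1231 and 1242 CPM, 0.01, -0.18 to 0.21) and B2m (1057 and 1020 CPM, -0.06, -0.26 to 0.16) were close, and Tapbp, which loads class I, was at 215 and 118 CPM (-0.88, -1.38 to -0.34).

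Of the cytokines and chemokines, Ccl4 was by far the most abundant and was level between the libraries. It had 0 to 157 UMIs per member (median 53) in the wild type and 4 to 360 (median 53) in the knockout, with 6725 and 6756 CPM (0.01, -0.08 to 0.09). Ccl3 was at 435 and 520 CPM (0.25, -0.06 to 0.59) and Tnf at 110 and 96.6 CPM (-0.23, -0.85 to 0.53). Leaving out the richest member of each library gave Ccl3 a ratio of 0.69, outside its interval. Of 26 genes, 9 were measured, with none at least 2-fold higher and 1 lower, beside 3.91% of all measured genes. Their median was -0.39, beside -0.33 in all other cells. The lower gene was Ccl5, at 444 and 152 CPM (-1.55, -1.94 to -1.16), but 1 wild-type member held 70 of its 97 UMIs, and without the richest member of each library the log2 ratio was -0.16.

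Trafficking receptors had a median of 0.24 over 11 measured genes of 20, with none at least 2-fold apart, and a median of -0.11 at a minimum of 5 Siglech UMIs. The hyaluronan receptor Cd44 was at 3278 and 3878 CPM (0.24, 0.13 to 0.36) and the integrin Itga4 at 948 and 1263 CPM (0.41, 0.20 to 0.64), the latter with -0.28 when members were thinned to 1000 UMIs. Cxcr4, which holds cells in the marrow, was at 261 and 168 CPM (-0.65, -1.08 to -0.16). The inflammatory receptor Cxcr3 had 6 and 15 UMIs.

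**Figure D5:**
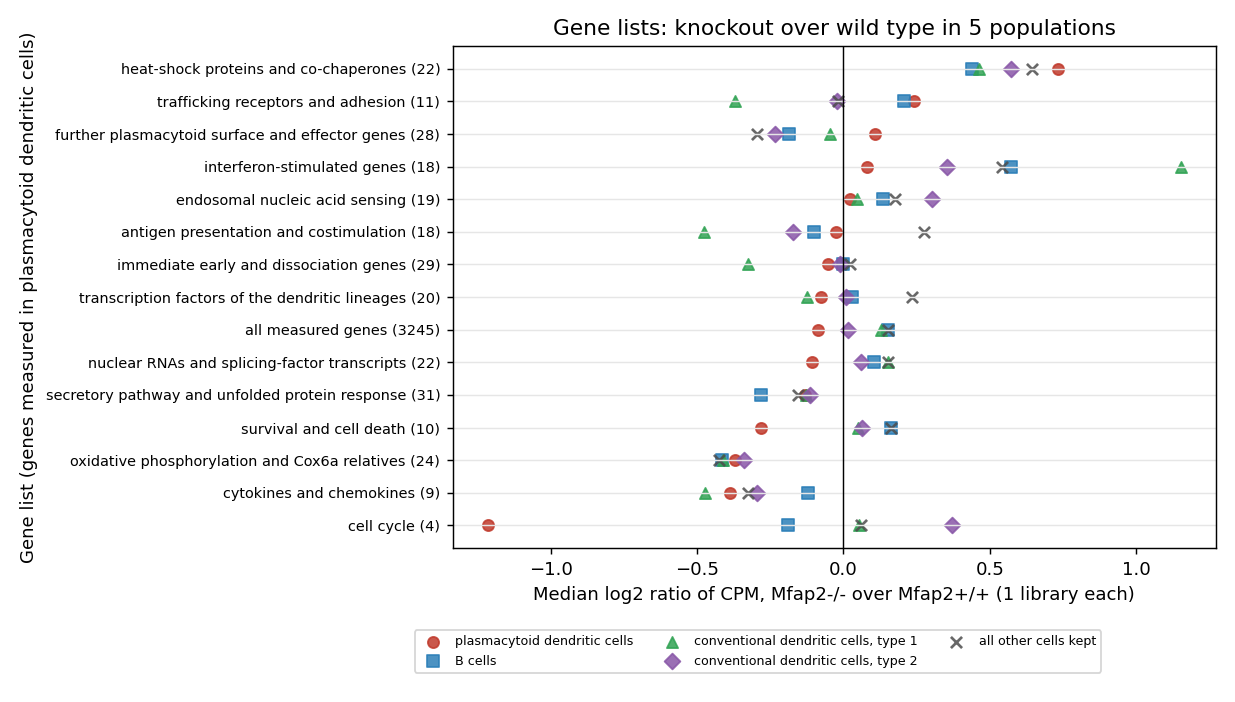
Median log2 ratio of CPM, Mfap2-/- over Mfap2+/+ with 1 library each (x axis), for 14 gene lists and all measured genes (y axis, with the number of genes measured in plasmacytoid dendritic cells); symbols are 5 populations. The heat-shock list is to the right of 0 in all 5, from 0.44 to 0.73, and the oxidative phosphorylation list to the left, from -0.42 to -0.34.

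Beyond the lists, 48 genes of at least 100 mean CPM met the criteria for naming in the higher and 14 in the lower direction, and the 12 with the largest ratios each way were named. The higher 12 were Slc5a3, Grm8, Mast4, Hspa1a, Dhx40, Hspa1b, Hmgcs1, Cacybp, Dnajb1, Oasl1, Cmah and Nr3c1. The inositol transporter Slc5a3 had 7 and 162 UMIs (2.32, 1.43 to 3.84), but it overlaps Mrps6 on the same strand and is uncertain. The helicase Dhx40 was at 476 and 1663 CPM (1.79, 1.52 to 2.11), and 0.81 in all other cells. Hmgcs1, an enzyme of cholesterol synthesis, was at 73.2 and 247 CPM (1.67, 1.02 to 2.59), and 0.13 in all other cells. Cmah, which makes a sialic acid that Siglec lectins bind, was at 142 and 396 CPM (1.44, 0.95 to 2.06). The glucocorticoid receptor Nr3c1 had 0 to 13 UMIs per member (median 2) and 0 to 72 (median 7), at 385 and 1021 CPM (1.39, 1.08 to 1.75), and 0.45 in all other cells. With each member thinned to 1000 UMIs, Hmgcs1 was at 0.11, Cacybp at 0.34, Cmah at 0.43 and Nr3c1 at 0.71, all below 2-fold, while Slc5a3, Grm8, Mast4, Hspa1a, Dhx40, Hspa1b and Dnajb1 were at least 2-fold higher under every alternative tried.

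The lower 12 were Sox4, Gm10076, Tuba1a, Tubb5, Kdm2b, Ypel5, Oxct1, Snrpf, Atp8b4, Dazap1, Slc25a5 and Arpc5l. Sox4, a factor of progenitor cells, had 0 to 18 UMIs per member in the wild type, with a UMI in 11 of 25, and 0 to 4 in the knockout, with a UMI in 21 of 79. It was at 270 CPM (206 to 348) and 40.4 CPM (28.3 to 56.0), a log2 ratio of -2.72 (-3.38 to -2.12), and -2.44 without the richest member of each library. In all other cells the ratio was -0.43. The tubulins Tuba1a (-1.47, -2.12 to -0.77) and Tubb5 (-1.25, -1.66 to -0.81) had -1.29 and -0.94 without the richest members, and Tuba1a had -0.66, Tubb5 0.018 and Gm10076 0.21 when members were thinned to 1000 UMIs. The histone demethylase Kdm2b was at 481 and 206 CPM (-1.23, -1.58 to -0.87), and at -0.61 with a minimum of 5 Siglech UMIs. Sox4 and Ypel5 were at least 2-fold lower under every alternative tried.

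Much of the wild-type sum of the cell cycle list came from 1 cell. Of 20 genes, 4 were measured. Of these, 3, Stmn1, Tubb5 and Hmgb2, were at least 2-fold lower in the knockout, beside 3.91% of all measured genes. The list's median log2 ratio was -1.22, and -0.76 without the 3 deepest members of each library. One wild-type member, the deepest of its library with 16922 UMIs, held 166 of the 309 cell cycle UMIs (53.7%), with 42 of Stmn1 and 11 of Mki67. The next cell held 30, and the highest knockout member 14. The list summed to 1415 CPM in the wild type and 710 CPM without that cell, against 431 CPM in the knockout and 422 CPM without its highest cell. Without the richest member of each library the log2 ratio of Stmn1 was -2.21 and that of Hmgb2 -0.56. Most of the wild-type Stmn1 UMIs left then, 11, were in the cell with 30 cell cycle UMIs.

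All 24 genes of oxidative phosphorylation were measured, with 20 below 0 and none 2-fold apart. Their median was -0.37 in the members, -0.42 in B cells, -0.41 and -0.34 in the conventional dendritic cells and -0.42 in all other cells. The secretory pathway list, large in these cells, had a median of -0.13 over 31 measured genes of 40 (39 could be matched), with Herpud1 at 723 and 483 CPM (-0.59, -0.85 to -0.31) and the chaperone Hspa5 at 581 and 864 CPM (0.56, 0.30 to 0.85). Immediate early genes had a median of -0.051 over 29 of 32, with Rhob (1.22, 0.61 to 2.02) and Tnfaip3 (1.03, 0.65 to 1.48), a brake on NF-kappaB, at least 2-fold higher and Dusp2 (-1.67, -2.37 to -0.93) lower. Of all genes measured in the members, 3.17% were at least 2-fold higher and 3.91% lower. Rhob was at 0.27 with thinning to 1000 UMIs, and Dusp2 at -0.83 with a minimum of 2 Siglech UMIs. Cd69, which keeps lymphocytes in tissue, was at 554 and 978 CPM (0.81, 0.54 to 1.11), and had -0.030 when members were thinned to 1000 UMIs. Survival genes had a median of -0.28 over 10 of 21, beside 0.16 in B cells and in all other cells. All measured genes had medians of -0.088 in the members and 0.15 in both of those populations. The survival median was -0.056 with the mean of per-cell CPM and -0.021 without members with 15 or more UMIs of another type. The last alternative was chosen after seeing the data. Bcl2 (-1.03, -1.82 to -0.12) and Bcl2a1b (-1.90, -2.83 to -0.94) were at least 2-fold lower, and the pro-apoptotic Bcl2l11 was at 449 and 725 CPM (0.68, 0.38 to 1.02). Bcl2 was at -0.34 with a minimum of 5 Siglech UMIs and at -0.76 without its richest members, both below 2-fold. Of the nuclear RNAs, Malat1 was at 12062 and 18537 CPM (0.62, 0.56 to 0.68) and Neat1 at 1767 and 2830 CPM (0.68, 0.52 to 0.84), while the 22 measured genes of that list of 25 had a median of -0.11. Leaving out the richest member of each library gave Neat1 a ratio of 1.06, outside its interval.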

How the data were processed

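Liver non-parenchymal cells of 1 Mfap2+/+ and 1 Mfap2-/- library were profiled with Chromium 3′ v3 chemistry, per the labels. The deposited matrices hold raw UMI counts per gene and barcode. The file headers name Cell Ranger 7.0.1, whereas the submitters' processing notes list Cell Ranger 3.1.0, Seurat and build mm10, and the treatment of intronic reads is not given in the sources used here.

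The filter removed 413 and 149 barcodes. The cells were gated on UMIs, not clustered, and no doublet caller was run: the limits on T, B and C1q genes stood in for it. UMIs were summed over the members of a library and scaled to CPM. Each log2 ratio divides the knockout by the wild-type CPM after 1 count is added to both sums, and fold changes of at least 2 were counted without a test. Intervals at 95% were exact Poisson for CPM, Clopper-Pearson for shares and exact conditional for ratios, and cover counting error only. Genes were named from the lists and by a rule: mean CPM of at least 100, a ratio of at least 2-fold with an interval without 0, a UMI in at least 5 members of the higher library, at most 33% of its UMIs in 1 cell and a level there at or above other cells, the 12 largest each way. Rule, mitochondrial, ribosomal and haemoglobin genes were left out of it. The 20 genes highest over other cells needed 20 UMIs per library. Some genes that met these rules are not reported here. The members, lists, gates and tests were chosen with earlier results of these data known. Gene positions came from GENCODE M21 (GRCm38), in which 32158 of 32285 identifiers (99.6%) were found, and promoters from RefSeq (GRCm38.p6). Mx1 and Mx2 were not matched, and Ddit3 was left out because its symbol occurs more than once. The alternatives were other UMI minimums and cell filters, other scaling, thinning, leaving out members, other added counts and other minimum levels. Intervals were tested only on simulated Poisson counts, the model they assume, so the spread between cells was not covered. Python 3.11.15, numpy 2.4.6, scipy 1.17.1 and pandas 2.3.3 were used.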

Additional observations from a re-analysis of the deposited data

How the results depend on the processing

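No paired analysis was possible because each genotype has 1 library. The log2 ratio of the share lay between 1.42 and 2.07 under all 8 planned changes to the rule, inside the interval of the reported value. The 103 higher and 127 lower genes became 227 and 502 at a mean CPM of at least 20, 61 and 39 at 100, and 213 and 839 with each member thinned to 1000 UMIs. By construction, that thinning leaves 25000 wild-type UMIs, in which the added count is worth 40 CPM, against 79000 in the knockout. Under it the medians were 0.34 for heat-shock genes, -0.15 for further plasmacytoid genes and -0.22 for antigen presentation. At 5 or more Siglech UMIs the medians were 0.54 for heat-shock, -0.083 for further plasmacytoid and -0.11 for trafficking genes. Without members with 15 or more UMIs of another type, an alternative chosen after seeing the data (20 and 67 members), the further plasmacytoid median was -0.040; the planned limit of 5 UMIs left 1 and 4 members and was not run. Nucleic acid sensing had 0.21 at a mean CPM of at least 100. The causes were not tested.

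Of 3924 single-gene values for 327 genes, 294 lay outside the reported interval. The 138 genes whose interval left out 0 had the other sign in 21 of 1656 values, and the remaining genes in 330 of 2268. Of 54 genes at least 2-fold apart, 20 were so under every alternative, 21 were below 2-fold with thinning and 15 at 5 Siglech UMIs. The 21 values with the other sign were, with thinning, Atp5e at 0.077, Canx at -0.73, Cd69 at -0.030, Cox8a at 0.090, Dnase1l3 at -0.85, Flt3 at 0.11, Gm10076 at 0.21, Hspa4l at -0.66, Itga4 at -0.28, Manf at 0.34, Nlrc5 at 0.15, Sec61g at 0.55, Stip1 at -0.075 and Tubb5 at 0.018. At 5 Siglech UMIs they were Bst2 at -0.041, Iglc3 at -0.031 and Siglech at -0.052. Without other-type members they were Ccl5 at 0.13, Iglc3 at -0.017 and Pecam1 at 0.025, and without its richest members Pecam1 was at 0.23, an alternative also added after seeing the data. With 25 wild-type members, genes under about 20 UMIs there have wide intervals.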

Other observations

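Siglech was not confined to the members. They held 57.5% of the Siglech UMIs of the wild-type and 65.3% of those of the knockout kept cells. Of the cells outside the rule, 0.582% (wild type) and 1.76% (knockout) had a Siglech UMI. Cells with at least 3 Siglech UMIs that the rule left out were 7 wild-type and 27 knockout cells, with median depths of 14431 and 14295 UMIs. Of these, 4 and 13 had Cd3 UMIs, 2 and 4 had more than 1 UMI of Cd79a and Ms4a1, 3 and 13 had more than 10 C1q UMIs, and 0 and 2 had too few further genes. A cell can count under several of these.

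A knockout member held 131 UMIs of the neutrophil list, where the next highest held 15. Mzb1, a secretory chaperone of plasma cells that plasmacytoid dendritic cells also express, had 9 and 91 UMIs in the members, a log2 ratio of 1.17 (0.32 to 2.48), and -0.076 in all other cells. At a minimum of 5 Siglech UMIs the ratio was 0.67.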
